A study of Mus musculus with 4 samples.

Results

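Hyaluronan is a long sugar chain of the space between cells, and 8 genes that make it, cut it or bind it were followed here in the mouse host tissue of human breast tumours. They are the hyaluronan synthases Has1, Has2 and Has3, the hyaluronidases Hyal1 and Hyal2, the receptor Cd44, and the proteoglycans versican (Vcan) and aggrecan (Acan). A probe was taken where the platform annotation gives it exactly 1 gene symbol and that symbol is 1 of the 8. This rule found 25 of the 45220 features of the array, and all 8 genes, of 19087 named on it, had at least 1. The 12 Cd44 features were combined by their median, which left 14 probes, and each is named here by its gene and its feature number on the array.

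The tumours grew from MDA-MB-231, an established line of human breast cancer cells that lack hormone receptors, in immunodeficient mice whose strain, sex and age the labels do not give. Sunitinib, a drug that blocks the receptor kinases for VEGF and PDGF among others, was given at 40 mg/kg/day to the hosts of 2 samples, and the hosts of the 2 control samples got vehicle. The title names withdrawal of the drug, and no label gives the time between the last dose and sampling. Each sample went onto 1 single-colour array of mouse probes, and since tumour tissue holds human and mouse RNA together, RNA of the tumour cells that binds a mouse probe and RNA of the host cannot be told apart. Slide 1 held replicate 1 of both groups and slide 2 replicate 2 of both. The labels do not say that replicates were separate animals, so the p-values here measure only the spread among these 4 samples, possibly a technical one.

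Hyaluronan is made at the plasma membrane by the synthases, which join 2 UDP-sugars in turn and push the growing chain out of the cell. In tissue it is organised by link proteins and by versican and aggrecan, which bind it at one end, and it is sensed by Cd44 and other receptors. Hyal2 at the cell surface cuts long chains, and Hyal1 in the lysosome cuts the pieces further. In many carcinomas hyaluronan builds up in the stroma, where fibroblasts make much of it.

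None of the 14 probes passed limma's moderated test of sunitinib against vehicle (0 with an adjusted p under 0.05 and 0 with an unadjusted p under 0.05, smallest adjusted p 0.426, n = 2 per group). Of all 43154 probes on the array, 0.00232% passed the adjusted threshold and 13.4% the unadjusted one. The unadjusted count became 1 when sunitinib replicate 2 was left out (Hyal2, limma adjusted p = 0.518). It was also 1 when vehicle replicate 2 was left out (Has2 31204, limma adjusted p = 0.635). Differences of the 14 probes ran from -0.21 to 0.205 on the log2 scale with a median of 0.015, beside a median of 0.005 over all probes. Taking all their 95% intervals together, the lowest bound was -0.66 and the highest 0.51. The 1 probe of the array that passed was one of Xist, the RNA that coats the inactive X chromosome of female cells. It read 8.97 and 8.96 in the sunitinib arrays and 12.19 and 12.26 in the vehicle arrays (difference -3.26, SE 0.08, limma adjusted p = 0.00997). That p was 0.54 with the slide as a block, 0.417 to 0.635 without any 1 array, and 0.00149 to 0.635 over all alternatives tried. Eif2s3y, a Y-linked gene, read 10.21 and 10.02 against 8.46 and 8.58 (difference 1.595, limma adjusted p = 0.295), so every comparison below is also one between arrays with and without Xist signal. Both markers part the arrays as the sex of the mouse tissue would, so treatment and that sex cannot be told apart here.

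Values are the authors' log2 intensities, with no detection flags used here, and what could be read depends on how far a probe stood above the common floor of the array. The median of all features was 8.89 or 8.90 on every array and the upper quartile 9.47 to 9.49. Above the upper quartile on all 4 arrays stood the Cd44 median, the single Hyal2 probe and 1 of the 2 Has2 probes. The other 11 probes lay between 8.39 and 9.35, and 8 of the 14 were at or under the array median on at least 1 array. For these dim probes a log2 difference is compressed, so that neither it nor its interval bounds the change of the mRNA.

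**Figure D1:**
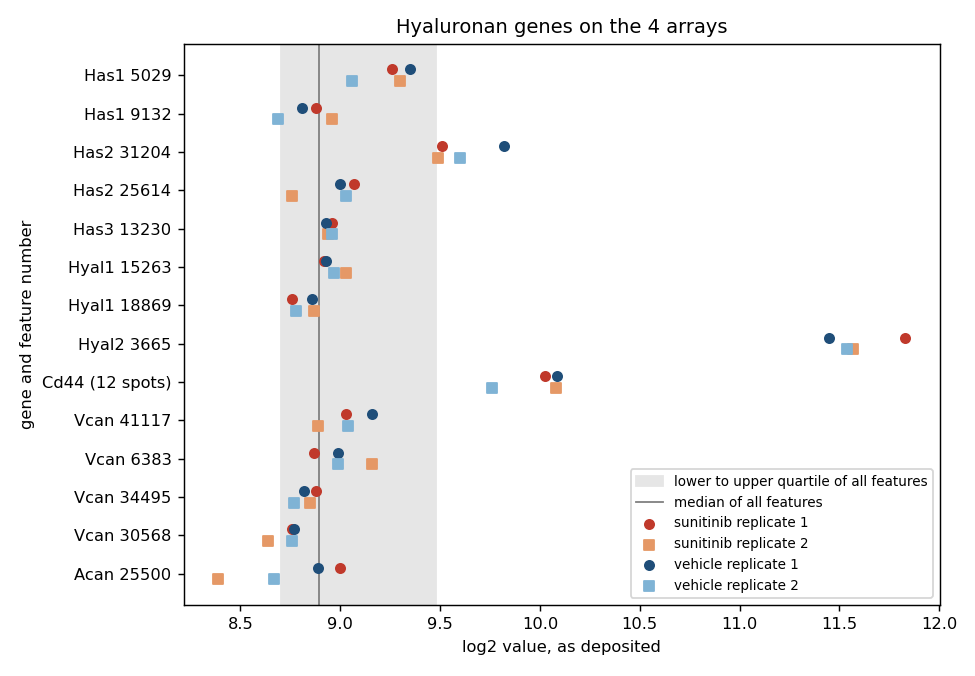
Log2 value (horizontal axis, as deposited) of each of the 14 probes (rows, gene and feature number) on the 4 arrays, with sunitinib in red and orange and vehicle in dark and light blue. The grey band runs from the lower to the upper quartile of all features, and only Has2 31204, Hyal2 3665 and the Cd44 median lie beyond it on every array.

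Among the synthases, Has2 gave the clearest reading. Has2, the synthase that mouse embryos need for heart development, read 9.51 and 9.49 on the sunitinib and 9.82 and 9.60 on the vehicle arrays on feature 31204. Both sunitinib arrays lay below both vehicle arrays, and the difference of -0.21 (SE 0.10, 95% interval -0.48 to 0.06, limma adjusted p = 0.426) was just under the gap of 0.22 between the vehicle arrays. It was -0.31 on slide 1 and -0.11 on slide 2. On the dimmer Has2 feature 25614, the values 9.07 and 8.76 overlapped the vehicle values of 9.00 and 9.03, and the slides differed in sign (0.07 and -0.27).

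Has1 and Has3, the other synthases, stayed in the range where most features of the array lie. Has1 feature 5029 read 9.26 and 9.30 on the sunitinib and 9.35 and 9.06 on the vehicle arrays, a difference of 0.075 (SE 0.12) with opposite signs on the slides (-0.09 and 0.24). Has1 feature 9132 was higher in both sunitinib arrays, at 8.88 and 8.96 against 8.81 and 8.69 (difference 0.17, SE 0.09, limma adjusted p = 0.444). These values lie around the array median, and the difference shrank to 0.0463 when a smooth drift across the array surface was removed (the position trend). Has3 read 8.96, 8.94, 8.93 and 8.96 on sunitinib replicates 1 and 2 and vehicle replicates 1 and 2. Its 4 arrays spanned 0.03, the smallest range among the brightest probes of the 8 genes.

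Hyal2, the cell surface hyaluronidase, read 11.83 and 11.57 on the sunitinib and 11.45 and 11.54 on the vehicle arrays. The groups did not overlap, but the lower sunitinib value and the higher vehicle value were 0.03 apart, and that pair shared slide 2. The difference was 0.205 (SE 0.12, 95% interval -0.10 to 0.51, limma adjusted p = 0.467), or 0.934 to 1.42 as a fold range. It lay almost wholly on slide 1 (0.38), and without sunitinib replicate 1 it was 0.075. In the RefSeq table Hyal1 is the next protein-coding gene after Hyal2, and its probes gave no such reading. Hyal1 feature 15263 read 8.92 and 9.03 against 8.93 and 8.97, and feature 18869 read 8.76 and 8.87 against 8.86 and 8.78. Both Hyal1 differences were small beside their errors (0.025, SE 0.09, and -0.005, SE 0.09).

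**Figure D2:**
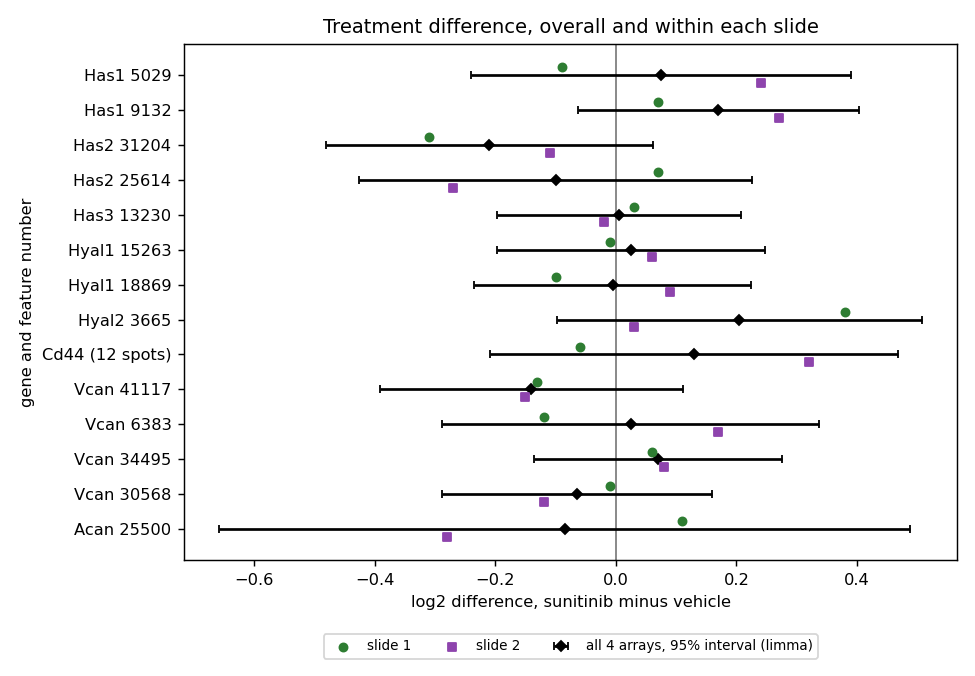
Log2 difference, sunitinib minus vehicle (horizontal axis), of the 14 probes (rows). Black diamonds with bars are limma's estimate over all 4 arrays with its 95% interval, green circles the difference on slide 1 and purple squares that on slide 2. All 14 intervals include 0, and for 8 probes the slides fall on opposite sides of it.

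Cd44, the main cell surface receptor for hyaluronan and also a marker of leukocytes and mesenchymal cells, was measured by 12 features. Their median was 10.025 and 10.08 with sunitinib against 10.085 and 9.76 with vehicle, with a median absolute deviation of 0.09 to 0.11 among the features of an array. Vehicle replicate 2 was low and the other 3 arrays were nearly level. The difference of 0.13 (SE 0.13, 95% interval -0.21 to 0.47, limma adjusted p = 0.66) corresponds to a fold range of 0.865 to 1.38. It was smaller than the gap of 0.325 between the vehicle arrays, and leaving out vehicle replicate 2 turned it to -0.0325.

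The separate Cd44 features showed how the slides parted. On slide 1 the sunitinib array was the lower one for 11 of the 12 features (median difference -0.125, from -0.37 to 0.07). On slide 2 it was the higher one for 11 of them (median 0.385, from -0.42 to 0.56). The pattern of lower on slide 1 and higher on slide 2 held for 10 of the 12 features, against 19.9% of all features, though these 12 share 1 gene and the same 4 RNA samples and count as 1 measurement. Removing the position trend left the same counts on each slide (11 and 11), with medians of -0.126 and 0.29. Vehicle replicate 2 was the lowest of the 4 arrays for 10 of the Cd44 features, and it was the lowest for 29.0% of the 217 probes that were combined from copies.

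Of the 12 Cd44 features, all but the brightest and the dimmest, 10 in number, had means between 9.87 and 10.095. Feature 43565 was brighter, at 11.64 and 11.82 with sunitinib against 11.91 and 11.36 with vehicle, and showed the same slide pattern (-0.27 and 0.46). Feature 4856 was near the array median, at 8.48 and 8.94 against 8.85 and 8.85. The annotation gives all 12 the same transcript, and the isoforms of Cd44 that each feature reads are not resolved here. A list of macrophage markers, cells that carry Cd44, had slide medians of the same signs (-0.05 on slide 1 and 0.22 on slide 2 over 8 measured of 10 genes). Differences of its genes ran from -0.715 to 0.32. Its mean level was 12.9 and 13.3 with sunitinib and 13.2 and 13.0 with vehicle, and its part in the Cd44 values was not tested. These signs were not particular to macrophages. Slide medians were -0.175 and 0.1475 for pericytes and smooth muscle, -0.22 and 0.05 for neutrophils, and -0.03 and 0.03 for keratinocytes.

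**Figure D3:**
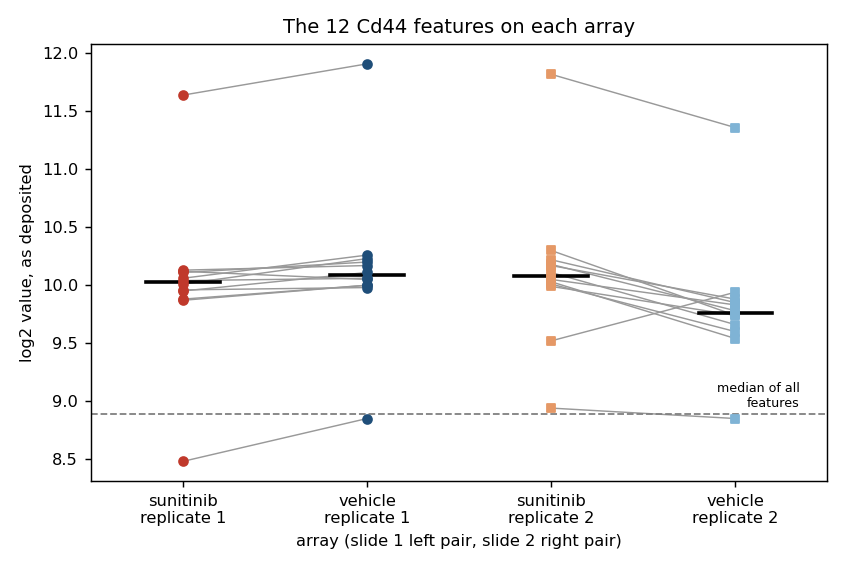
Log2 value (vertical axis, as deposited) of the 12 Cd44 features on the 4 arrays, with the arrays of slide 1 on the left and those of slide 2 on the right. Grey lines join a feature within a slide, black bars are medians (10.025, 10.085, 10.08 and 9.76 from left to right), and the dashed line is the median of all features. On slide 2 the lines fall from sunitinib to vehicle for 11 of the 12 features.

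Versican, a large proteoglycan of loose connective tissue and tumour stroma, had 4 probes, all of them dim. The probe with the highest mean, 41117, read 9.03 and 8.89 on the sunitinib and 9.16 and 9.04 on the vehicle arrays. Both sunitinib arrays were below both vehicle arrays, by -0.13 on slide 1 and -0.15 on slide 2 (difference -0.14, SE 0.10, limma adjusted p = 0.533). Feature 34495 went the other way on both slides (0.06 and 0.08), with 8.88 and 8.85 against 8.82 and 8.77. Features 6383 and 30568 overlapped between groups, with differences of 0.025 (SE 0.12) and -0.065 (SE 0.09). The versican probes therefore gave no common direction.

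Aggrecan, the main proteoglycan of cartilage, had 1 probe and the widest spread. It read 9.00 and 8.39 on the sunitinib and 8.89 and 8.67 on the vehicle arrays, so that both slide 2 arrays lay below both slide 1 arrays. The difference was -0.085 (SE 0.22, 95% interval -0.66 to 0.49, limma adjusted p = 0.879), and the gap between the sunitinib arrays was 0.61. That gap rests on the value of 8.39 on sunitinib replicate 2, under the 5th percentile of that array (8.49). With values floored at the 5th percentile the aggrecan difference was -0.035. Of 10 cartilage markers, 5 had a mean above the median of all probes, and their median difference was 0.1225. Col2a1, the main cartilage collagen, read 12.14 and 12.09 on the sunitinib and 12.57 and 12.14 on the vehicle arrays, well above the floor on arrays where the aggrecan probe was at it. The Col2a1 difference of -0.24 was the lowest of the cartilage list, whose highest was 0.71. Averaged over the Col2a1 probes it was -0.0975.

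Over the 14 probes, the groups did not overlap for 3 probes that were higher with sunitinib (Has1 9132, Hyal2 3665 and Vcan 34495) and 2 that were lower (Has2 31204 and Vcan 41117). Over all probes the groups did not overlap for 25.5% upward and 21.6% downward, so the members' shares were no larger than those of the array. The treatment difference exceeded the gap within both groups for 2 probes (Has1 9132 and Vcan 34495), and for 33.8% of all probes. The slides gave opposite signs for 8 of the 14 probes, and for 37.1% of all probes. The median gap between replicates was 0.11 with sunitinib and 0.085 with vehicle, close to the 0.12 and 0.11 of all probes.

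By Euclidean distance between the 4 values centred on their mean, the genes whose profile was most like that of Hyal2 were Ubp1 (distance 0.022), E2f1 (0.026) and Stx5a (0.026). Ubp1 read 9.94 and 9.70 on the sunitinib and 9.55 and 9.66 on the vehicle arrays, again with sunitinib replicate 1 high. For aggrecan the nearest were Ramp2 (0.079), Neurl2 (0.089) and Bok (0.092), all low on sunitinib replicate 2. Candidates were the 12406 genes, members left out, whose brightest probe had a mean above the median of all probes. Of them, 994 lay within 0.2 of Hyal2 and 43 within 0.2 of aggrecan. The aggrecan probe itself, with a mean of 8.74, lay under that median of 8.86, so probes as dim as it were not compared.

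The wider set of genes around hyaluronan was read from a list of 56 genes. A named probe was found for 51 of them, and the brightest probe of 38 lay above the median of all probes. In limma 0 of the 51 passed the adjusted threshold (smallest adjusted p 0.352), against 0.00524% of all genes, and 5 higher and 3 lower ones had an unadjusted p under 0.05. Over all genes 14.8% did so, 8.44% upward and 6.32% downward. Counting all 81 probes of the list, 5 were higher and 9 lower at that threshold, against 7.72% and 5.7% of all probes. The median difference of the list was -0.05, beside 0.005 over all genes. The groups did not overlap for 14 higher and 11 lower genes of the list, against 25.9% and 22.3% of all genes.

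Of the 5 genes of sugar precursor supply, all above the median, Uap1 had the smallest p. Uap1, which makes UDP-N-acetylglucosamine, read 12.39 and 12.53 in the sunitinib arrays and 12.18 and 12.11 in the vehicle arrays (difference 0.315, SE 0.09, limma adjusted p = 0.352). Both sunitinib arrays were the higher ones on their slides (0.21 and 0.42). Ugdh, which makes the other building block, UDP-glucuronic acid, read 11.26 and 11.42 against 11.71 and 11.16, overlapping and with opposite signs on the slides (-0.45 and 0.26).

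Cemip, a protein that fibroblasts need to break hyaluronan down, had the smallest p of the list. It read 9.43 and 9.74 in the sunitinib arrays and 10.47 and 10.26 in the vehicle arrays (difference -0.78, SE 0.14, limma adjusted p = 0.352), lower on both slides (-1.04 and -0.52). The other 3 Cemip probes were dim and differed by -0.355, 0.11 and 0.005. Fibroblast markers parted the arrays the same way. Their groups did not overlap for 7 of 9 measured genes, all lower, against 22.3% of all genes. In limma 0 passed the adjusted threshold and 5 had an unadjusted p under 0.05, all lower, against 6.32% of all genes. Their mean level was 12.01 and 11.77 with sunitinib against 12.68 and 12.18 with vehicle. Pdgfra, a receptor of fibroblasts, read 9.84 and 9.89 against 10.98 and 10.32, and Lum, a matrix proteoglycan, 12.45 and 12.05 against 13.48 and 12.57. The part of fibroblast content in the Cemip and Has2 values was not tested, and in bulk tissue fewer cells of a type and less RNA per cell cannot be told apart.

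Cemip2 and Hyal3 gave differences smaller than their errors, and the other genes of breakdown that were read, Hyal5, Hyal6, Spam1, Hexa and Gusb, lay between -0.145 and 0.15. Cemip2 (Tmem2), a relative of Cemip at the cell surface, read 9.44 and 9.54 against 9.23 and 9.71 (difference 0.02, SE 0.17). Hyal3, a relative of Hyal1 and Hyal2, stayed near the array median with a difference of 0.015 (SE 0.08).

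Among 7 other receptors, the groups did not overlap for Lyve1 and Layn, both lower with sunitinib, beside 22.3% of all genes, and neither passed the adjusted threshold. Lyve1, the hyaluronan receptor of lymphatic endothelium, read 9.80 and 10.52 against 10.55 and 10.68 (difference -0.455, SE 0.25, limma adjusted p = 0.449), so that sunitinib replicate 1 was low and sunitinib replicate 2 close to the vehicle arrays. The difference was -0.095 without sunitinib replicate 1 and -0.815 without sunitinib replicate 2. A dimmer Lyve1 probe differed by -0.405 and was lower on both slides. Layn, a membrane lectin that binds hyaluronan, read 9.19 and 8.86 against 9.33 and 9.47 (difference -0.375, SE 0.14, adjusted p = 0.365). It was -0.1975 with the position trend removed. Stab1, a scavenger receptor of macrophages and some endothelium, read 12.27 and 12.70 against 12.60 and 12.64, with overlap (difference -0.135, SE 0.16). Hmmr, a hyaluronan-binding protein that also sits on the mitotic spindle, differed by 0.005 (SE 0.13).

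The 3 linkers that tie the tail of Cd44 to actin, grouped after their values were seen, had groups that did not overlap on their brightest probes, each higher with sunitinib, beside 25.9% of all genes. None passed the adjusted threshold. Ezr (ezrin) read 11.69 and 11.73 against 11.41 and 11.37 (difference 0.32, SE 0.08, limma adjusted p = 0.352). Rdx (radixin) read 10.53 and 10.52 against 10.31 and 10.16 (difference 0.29, SE 0.09, adjusted p = 0.352), but a dimmer Rdx probe differed by -0.365, and the mean of its 3 probes was -0.0417. With the position trend removed, the brightest Rdx probe differed by 0.1525. Msn (moesin), named in addition after its values were seen, read 10.54 and 11.26 against 10.09 and 10.44 on its brightest probe (0.635, SE 0.27), and its other probes differed by 0.15 and 0.17.

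Among other binding proteins, Tnfaip6, which moves protein chains onto hyaluronan in inflamed tissue, overlapped between groups at 9.5 and 9.58 against 9.8 and 9.15. Impg2, a proteoglycan of the retina, read 8.99 and 9.00 against 8.79 and 8.72, around the array median (difference 0.24, SE 0.08, limma adjusted p = 0.355). That difference was 0.0613 with the position trend removed. The other 3 Impg2 probes differed by 0.115, 0.01 and -0.23, and the mean of all 4 was 0.0337. The link proteins Hapln1 and Hapln3, which fasten proteoglycans to hyaluronan, were dim and differed by -0.07 (SE 0.08) and 0.23 (SE 0.20).

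The 5 matrix partners of versican and aggrecan, also grouped after their values were seen, had a median difference of -0.345. Fbln2 (fibulin 2) read 13.20 and 13.06 in the sunitinib arrays and 13.87 and 13.47 in the vehicle arrays (difference -0.54, SE 0.16, limma adjusted p = 0.352), lower on both slides (-0.67 and -0.41). Of the 5 partners the groups did not overlap for 3, all lower, beside 22.3% of all genes, and 0 passed the adjusted threshold. Tnc, among these 3, differed by -0.85 on its brightest probe, but its other probes differed by -0.42, 0.15, 0.125 and 0.025. The fibroblast markers had a lower median on both slides as well (median differences -0.67 and -0.43), and their part in these values was not tested. Of the 5 ADAMTS proteases that cut these proteoglycans, the groups overlapped for all 5, with a median difference of -0.11.

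**Figure D4:**
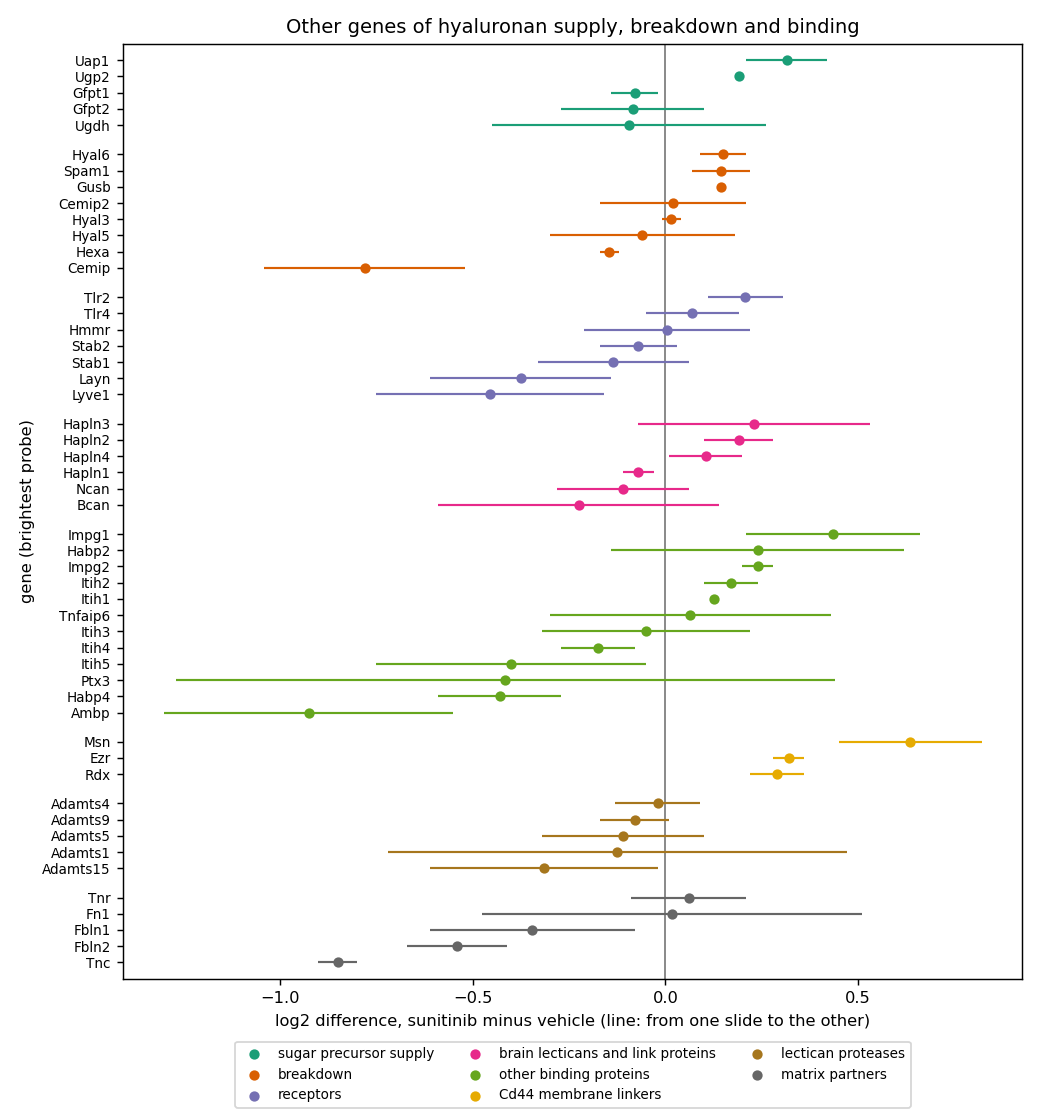
Log2 difference, sunitinib minus vehicle (horizontal axis), of the brightest probe of 51 genes around hyaluronan (rows), coloured by role. A dot is the difference over all 4 arrays and its line joins the differences on the 2 slides. On both slides 15 of the 51 genes are higher and 14 lower with sunitinib, beside 6113 and 5327 of all 19087 genes. Among them, Cemip, Ambp and Tnc lie to the left and the 3 linkers of Cd44 to the right of 0.

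Markers of other cell types were read on the same arrays. The adipocyte list had a median difference of 1.19 over 9 measured genes, with Adipoq, a fat cell hormone, at 11.41 and 11.23 against 9.28 and 8.70. Adipocyte genes ran from -0.205 to 2.62, and 7 of the 9 were higher with sunitinib on both slides. The blood vessel list had a median of 0.0075 over 10 genes, with Pecam1 at 10.09 and 9.90 against 9.88 and 9.89. Its genes ran from -0.73 to 0.735, and its medians were 0.235 on slide 1 and -0.19 on slide 2. Medians for skeletal muscle, pericytes, neutrophils and keratinocytes lay between -0.07 and 0.1125. Single genes ran wider, from -0.015 to 1.215 for skeletal muscle and from -0.995 to 0.55 for pericytes and smooth muscle. They ran from -0.265 to 0.05 for neutrophils and from -0.175 to 0.21 for keratinocytes. The part of these cell types in the hyaluronan genes was not tested.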

How the data were processed

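The authors deposited 1 log2 value per feature and array, and these values, from 6.75 to 16.34, show the scale and a normalization between arrays. The submitters' processing notes name limma, with no version, and how background was handled is not stated there. Values were used as deposited. Probes were named through the platform annotation, with current symbols looked up in RefSeq's GRCm38.p6 gene table through the gene number (99.6% matched). Features with the same gene and transcript in 8 or more copies were combined by their median, giving 43154 probes. No per-sample columns were left unused.

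The comparison used limma 3.58.1 (lmFit, eBayes; R 4.3.3) with treatment as the factor, and the Benjamini-Hochberg adjustment ran over all 43154 probes (threshold 0.05). For lists, a gene was read on its brightest probe. Single arrays carry no counts, so their number limits the precision. The fit was tested on simulated data.

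The array titles place same-numbered replicates on 1 slide, which pairs them. Their deviations from group means correlated at -0.225 over all probes. With 2 arrays per group this value fixes that of the other pairing, sunitinib replicate 1 with vehicle replicate 2, at 0.225. In the titles, vehicle is array 1 and sunitinib array 2 of each slide, so that treatment and the array's place on the slide cannot be told apart.

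Members and lists were chosen with earlier results of these data known, and the roles in the wider list were assigned after its values were seen. All member probes are named. From the wider list the rule named genes above the median with an unadjusted p under 0.05 and 1 sign on both slides (7 genes), and 10 fixed genes. Msn, Tnc, Ambp and the second probes of named genes are outside it. Listed genes without a named probe, such as Hyal4, Prg4, Susd5 and Spp1, and Cd68 among the markers, and probe sequences are not analysed here. Alternatives were the slide as a block, quantile normalization, median centring, a dim probe filter (30th percentile), a floor (5th percentile), a trended robust prior, every spot alone, the brightest or mean probe per gene, removal of a position trend (running median over 21 by 21 features, alone or with the block), and leaving out each array.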

Additional observations from a re-analysis of the deposited data

How the results depend on the processing

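Under all 15 alternatives, 0 member probes and 0 probes of the wider list passed the adjusted threshold in limma. Over all probes the number that passed was 1. It was 0 with the slide as a replicate block, 2 with arrays centred on the median, 6 with a trended robust prior, 0 when a gene's probes were averaged, and 4 with the position trend removed, alone or with the replicate block. Without any 1 array it was 0, and the block and such fits leave 1 residual degree of freedom instead of 2. The unadjusted count over all probes went from 5792 to 3667 with the replicate block, which changed no call of a member, and was 2849 to 5110 without 1 array. The members' unadjusted count of 0 became 1 without sunitinib replicate 2 and 1 without vehicle replicate 2. Of the wider list, 14 of 81 probes had an unadjusted p under 0.05, beside 13.4% of all probes, and 7 to 13 without 1 array.

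Signs of small differences turned in places, and the cause was not tested. With the position trend removed, alone or with the replicate block, these were Has2 25614 (0.0338), Has3 (-0.0712), Hyal1 15263 (-0.01), Hyal3 (-0.045), Cemip2 (-0.0538) and Hmmr (-0.1562). When a gene's probes were averaged they were Rdx (-0.0417), Hapln1 (0.055) and Pecam1 (-0.0213). Without 1 array, differences ranged from -0.39 to 0.22 for Acan, -0.0325 to 0.2925 for Cd44, -0.07 to 0.22 for Has1 5029, -0.255 to 0.055 for Has2 25614, -0.01 to 0.02 for Has3, -0.03 to 0.08 for Hyal1 15263, -0.06 to 0.05 for Hyal1 18869 and -0.12 to 0.17 for Vcan 6383. For other named genes they were -0.22 to 0.26 for Cemip2, -0.05 to 0.51 for Hapln3, -0.135 to 0.145 for Hmmr, -0.35 to 0.08 for Stab1, -0.26 to 0.39 for Tnfaip6 and -0.37 to 0.18 for Ugdh. Leaving out 1 array cannot turn a sign where the groups do not overlap or, as in Vcan 30568, share 1 value (8.76). The replicate block and the trended robust prior leave the difference itself as it is. A kept sign under these alternatives is therefore not a test of the difference. Of the members, Has2 31204 (-0.32 to -0.1), Hyal2 (0.075 to 0.335), Has1 9132 (0.0463 to 0.23) and Vcan 34495 (0.02 to 0.095) kept their sign under every alternative that read them. So did Vcan 41117 (-0.21 to -0.0275) and Vcan 30568 (-0.125 to -0.005), whose direction was opposite to that of Vcan 34495. In the wider list this held for Cemip (-0.935 to -0.255), Ezr (0.28 to 0.34), Uap1 (0.245 to 0.385), Fbln2 (-0.74 to -0.34), Layn (-0.54 to -0.1975), Lyve1 (-0.815 to -0.095) and Impg2 (0.0337 to 0.275). Their groups did not overlap either, which held for 25.9% of all genes upward and 22.3% downward. Leaving out 1 array could therefore not turn their signs. Signal over background limits the 11 dim member probes. Has2 31204 stood close to them, at 9.51 and 9.49 on the sunitinib arrays, whose upper quartiles were 9.48 and 9.47.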
